A study of Mus musculus with 33 samples.

Results

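The genes described here are 36 markers of differentiated colonocytes and of their brush border and were given as a list of gene symbols. They stood among the 32285 gene identifiers of each library, and every symbol matched a single identifier. The set holds 6 genes of carbonic anhydrases and ion transport, 7 of lipid, lipoprotein and bile acid handling, 9 of brush border assembly, 6 surface enzymes and adhesion molecules, 2 guanylin peptides, 3 further surface cell genes and 3 transcription factors. The question was how much of the colonocyte programme each tumour line kept when the non-induced organoids were taken as the differentiated reference.

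The series compared 8 mouse colon organoid lines by RNA sequencing of transcript 3′ ends (QuantSeq) in 33 libraries. Control libraries (6) came from colon organoids with the conditional alleles called AKP, Apc fl/fl and Trp53 fl/fl among them, that also carried a doxycycline-dependent Cre activated by blue light and a Cre reporter, and in which the alleles had not been recombined. Organoid AKP (6) was induced with light as ordinary organoids and then passaged. Mini-colon AKP comprised the lines #i, #ii, #iii, #iv and #v (3 each), organoids grown from cells of tumour-bearing mini-colons. Mini-colons are engineered colon tubes in which the alleles were recombined by light. The study took these lines from mini-colons enriched in tumours of the crypt or of the lumen, and calls #v crypt-enriched and #i lumen-enriched. In vivo AKP (6) came from colon tumours of tamoxifen-treated AKP mice in which an inducible Cre was driven by the Cdx2 promoter, and so from another mode of recombination than the other AKP lines. Before RNA was taken, all lines spent 3 days as organoids and a further 24 h without growth factors, so the reference is an organoid culture and not colon tissue. The study describes a full medium for organoids, and for expanding tumour organoids a medium without added EGF, noggin, R-spondin and WNT3A. Which medium each line had in the 3 days is not stated, so control and AKP lines may have differed in it. Its part in the results was not tested. The study describes the libraries as independent sets of samples, and those of organoid AKP and the mini-colon AKP lines as separate cultures. No label ties a library to a mouse, so p-values measure the spread between samples of a line. Library codes carry a letter, E or F, whose meaning is not given in the sources used here: replicates 1 to 3 of control, organoid AKP and in vivo AKP carry E and replicates 4 to 6 carry F, #i to #iii carry only E, and #iv and #v only F.

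Colonocytes are the absorptive cells of the colon. They leave the crypt base, stop dividing and, near the surface, build a brush border of microvilli: bundles of actin held together by villin, espin and fimbrin, anchored by myosin 1a and joined at their tips by protocadherins that are tied to the actin by the scaffold Ush1c and the motor Myo7b. The same cells absorb salt and water with the help of carbonic anhydrases and ion exchangers, export bile acids at their base and secrete guanylin peptides into the lumen. Hnf4a and Hnf4g are nuclear receptors that sustain enterocyte gene expression, and Klf4 is a zinc finger factor of post-mitotic intestinal cells.

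The libraries held 2438672 to 8256526 counts (median 3748649). Levels below are CPM, which are counts relative to the library total after TMM scaling. They are compared for a gene between lines, and differences in level between genes are not interpreted. Of the 36 genes, 35 passed the filter of at least 1 CPM in at least 3 libraries, as did 13606 genes in all. Car4, a membrane-bound carbonic anhydrase, did not pass: it had 13 counts in the control line, 2 in the in vivo AKP line and 0 elsewhere. The epithelial markers were counted in all lines, and their summed level lay between 8944 and 10327 CPM in control and between 3074 and 3566 CPM in organoid AKP. The libraries were not free of other programmes. Goblet cell markers summed to 536 to 844 CPM in control against 11.6 to 194 CPM in organoid AKP, stem cell markers to 265 to 424 CPM against 1667 to 2317 CPM, and cycling cell markers to 393 to 516 CPM against 3102 to 3686 CPM. Markers of fibroblasts and muscle summed to at most 1.92 CPM in control, with no count of Col1a1, Dcn or Lum, to 38.6 to 275 CPM in in vivo AKP, where Vim alone averaged 144 CPM, and to 40.5 to 118 CPM in #v, where Vim averaged 66.5 CPM, against 4.09 to 8.76 CPM in #i. Vim was the only marker of these 10 that passed the filter. Lum had no count in any line, and Dcn had none outside organoid AKP. Enteroendocrine and tuft cell markers summed to 1.06 to 9.09 CPM in control and to 35.1 to 319 CPM in the AKP libraries. Avil led in every AKP line and alone averaged 40.5 CPM in organoid AKP, where Neurod1, Pyy and Pou2f3 had no count. Over the 6 markers tested, the median log2 fold change from control was -1.14 in organoid AKP and 1.90 in in vivo AKP. Immune cell markers stayed between 2.29 and 16.1 CPM in every library, led by Cd68. The part of these shifts in the results below was not tested. In bulk RNA, fewer colonocytes and less RNA per colonocyte cannot be told apart.

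In organoid AKP, 32 of the 36 colonocyte genes were lower than in control and 0 were higher (edgeR, adjusted p below the threshold of 0.05). Over all genes tested, 33.6% were lower and 37.3% higher in the same comparison. The difference was also large in size: 22 of the 36 genes were lower by at least 16 times, against 3.60% of all genes. Against control, 24 genes were lower by this much in #i (4.44% of all genes), 23 in #ii (4.37%), 22 in #iii (4.43%), 22 in #iv (3.82%), 23 in #v (3.27%) and 25 in in vivo AKP (3.97%). The median log2 fold change of the 35 genes tested was -7.22, or -6.60 when genes without a count in organoid AKP are placed at the bound that their count allows, and the median over all genes was 0.06. The other AKP lines were likewise set against the same 6 control libraries, which all of these comparisons share. Of the 36 genes, 34 were lower in #i (33.5% of all genes), 33 in #ii (33.9%), 32 in #iii (33.8%), 32 in #iv (29.6%), 31 in #v (31.3%) and 32 in in vivo AKP (33.3%). For each mini-colon AKP line 0 were higher, against 33.3% to 35.0% of all genes, and in vivo AKP had 2 genes higher, Slc9a3 and Espn (38.8% of all genes). In total, 31 genes were lower than control in all 7 AKP lines, a count for which no share of all genes is given here. The exceptions were Eps8, lower in 5 lines (in #iv not without control replicate 1 or #iv replicate 1 or 3, and in #iii also lower under 20 alternatives, DESeq2, RLE scaling and E alone among them), Espn, lower in 3, Slc9a3, lower in 1 (0 counts in #i against 16 in control, and not called by limma-voom), and Fabp1, lower in 0. For 30 of the 35 genes tested, every one of the 27 AKP libraries lay below every one of the 6 control libraries, which was the case for 16.0% of all genes. The 5 genes whose groups overlapped were Slc9a3, Fabp1, Myo7b, Espn and Eps8. Apoa4, Apob, Slc51a, Slc51b, Slc26a3, Saa1, Mep1a, Alpi, Ceacam20, Ush1c, Guca2b and Aqp8 reached 1 CPM in no AKP library. These genes passed the filter through control alone, so a higher call in an AKP line could not arise for them. Fabp2, Apoa1, Muc3 and Tmigd1 reached 1 CPM in fewer than 3 AKP libraries, so they too passed only through control. The counts above include them, and the list was chosen with earlier results of these data known.

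**Figure D1:**
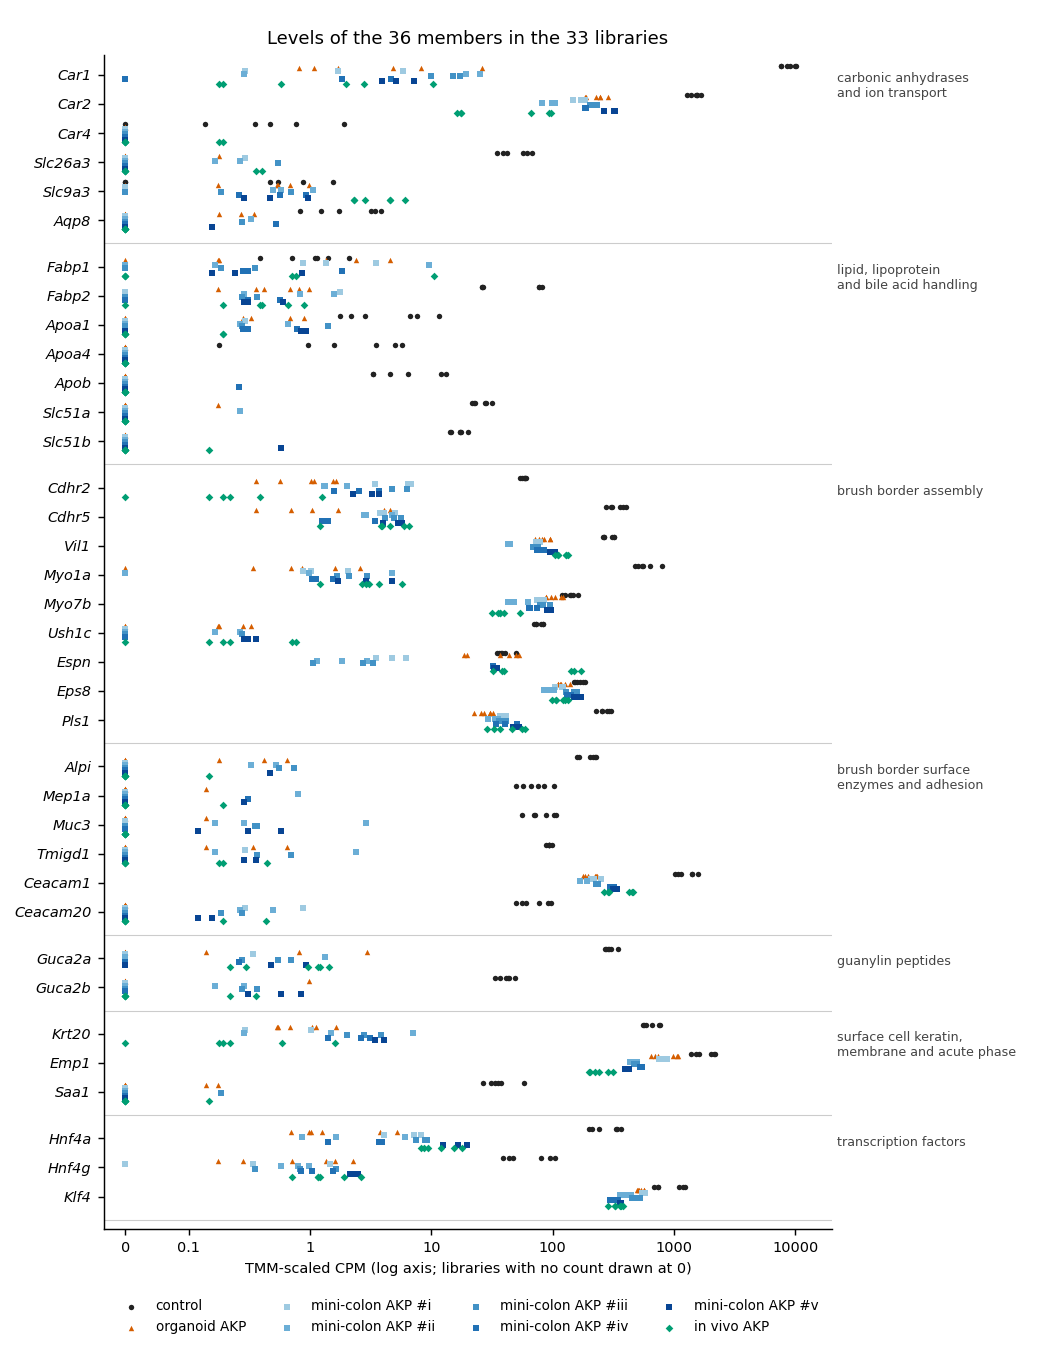
Level of each of the 36 genes in each of the 33 libraries, in TMM-scaled CPM on a log axis with libraries without a count drawn at 0. Genes are grouped by role, and colours mark control, organoid AKP, mini-colon AKP and in vivo AKP. For 30 of the 35 genes tested, all 27 AKP libraries lie below the 6 control libraries.

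The genes did not fall to a common fraction of the control level. As a mean over the 27 AKP libraries, 20 genes stood at less than 2% of their control mean, 5 between 2% and 10%, 7 between 10% and 60%, and 4 above 60%. The lowest class held Apoa4, Slc51a, Saa1, Car1, Alpi, Mep1a, Apob, Slc51b, Slc26a3, Ceacam20, Guca2a, Ush1c, Muc3, Tmigd1, Krt20, Myo1a, Guca2b, Fabp2, Cdhr5 and Hnf4g, from 0% to 1.77%. Between 2.26% and 5.87% stood Car4, Hnf4a, Aqp8, Cdhr2 and Apoa1. The genes that were kept in part, between 11.4% and 52.9%, were Car2, Pls1, Ceacam1, Vil1, Emp1, Klf4 and Myo7b. Eps8 (75.4%), Espn (95.4%), Fabp1 (131%) and Slc9a3 (207%) stood highest. The value for Fabp1 rested in large part on in vivo AKP replicate 5 (10.4 CPM) and #ii replicate 2 (9.46 CPM). The class limits were set after the values were seen, and the classes are a description.

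**Figure D2:**
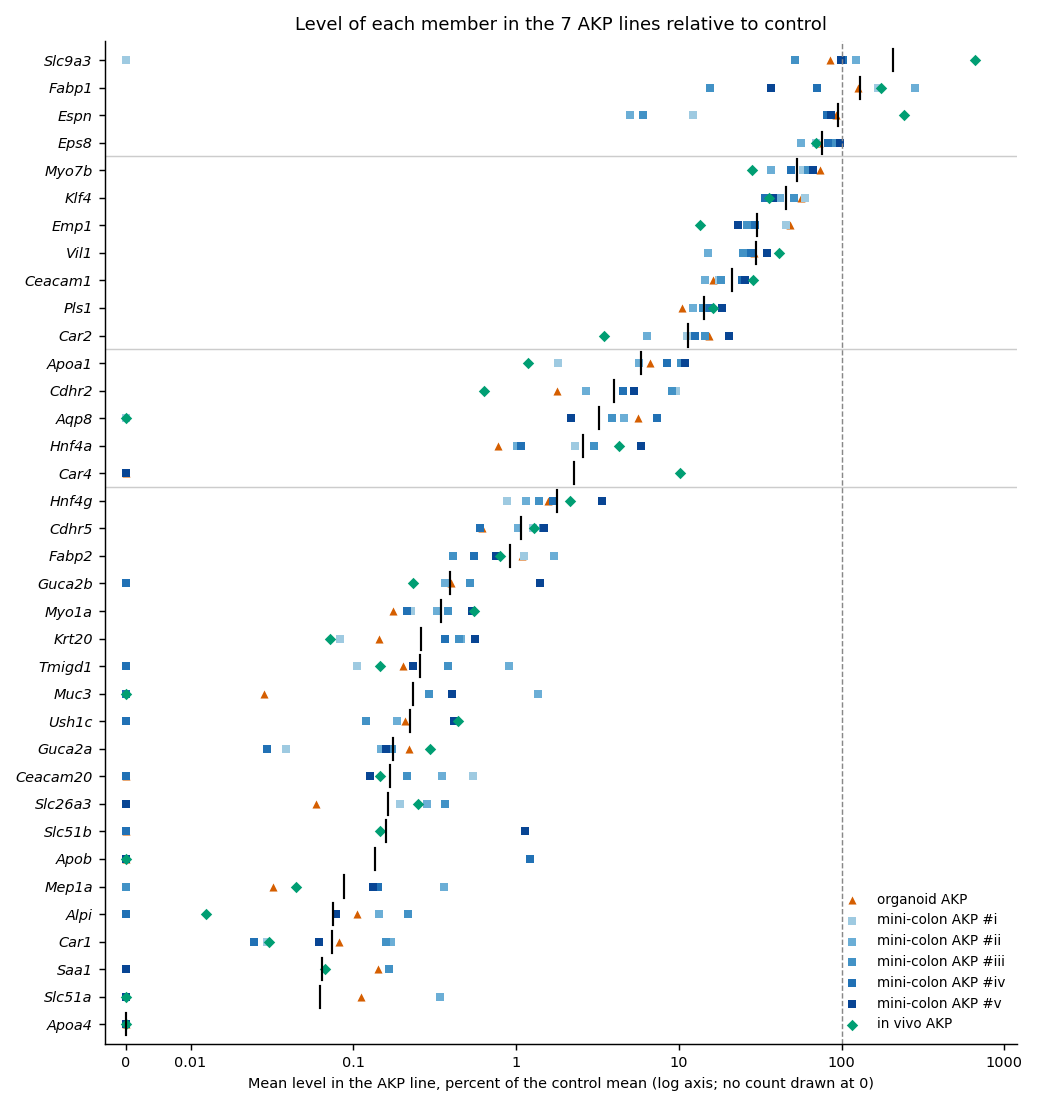
Mean level of each gene in each AKP line as a percent of its control mean, on a log axis. Genes are sorted by the mean over the 27 AKP libraries (black tick), the dashed line marks 100% and the separators mark the 4 classes, with lines without a count drawn at 0. The order runs from Apoa4 at 0% to Slc9a3 at 207%, and 20 genes lie under 2%.

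Among the transcription factors, both HNF4 genes were nearly lost whereas Klf4 was kept in part. Hnf4a (chr2:163348728-163414830, plus strand, GRCm39) had a lowest, median and highest level of 197, 285 and 365 CPM in control, of 0.690, 1.13 and 5.20 CPM in the organoid AKP libraries and of 8.25, 10.7 and 17.9 CPM in those of in vivo AKP. The mini-colon AKP libraries read 4.09, 8.17 and 7.15 CPM in #i, 0.862, 6.04 and 1.64 CPM in #ii, 7.46, 8.77 and 9.12 CPM in #iii, 1.41, 3.72 and 3.92 CPM in #iv and 19.8, 12.6 and 16.7 CPM in #v. All 27 AKP libraries were thus far below the lowest control library, and organoid AKP was the line with the lowest mean. Its log2 fold change against control was -7.22 ± 0.34 (SE, adjusted p = 1.1e-17), and its mean CPM was 130-fold lower. Hnf4g, the paralogue of Hnf4a, lay between 38.7 and 104 CPM in control with a median of 63.3 CPM, and between 0 and 2.62 CPM in the AKP libraries with a median of 1.15 CPM. In organoid AKP it was 63.5-fold lower than in control. Klf4 had a lowest, median and highest level of 681, 917 and 1238 CPM in control, 491, 525 and 570 CPM in the organoid AKP libraries and 287, 342 and 378 CPM in those of in vivo AKP. It was lower in each AKP line, but by less: the log2 fold change in organoid AKP was -0.84 ± 0.11 (adjusted p = 5.0e-08). The control libraries of these genes differed by letter, with a mean of 1173 CPM for Klf4 in E and 717 CPM in F, and of 215 CPM for Hnf4a in E and 345 CPM in F.

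Promoter windows are shown for genes that stood under 2% of control (Alpi, Fabp2, Slc51a) or kept part of their level (Vil1), and for Hnf4a, a factor known to bind enterocyte promoters that was itself nearly lost. Windows were taken from RefSeq (GRCm38.p6), which held 36 windows for 31 of the 36 genes, and each sequence below gives the 250 bases before the start site, 5′ to 3′ on the strand of the gene. Capitals mark a match to CAAAGTNCA, a form of the HNF4 motif, in Alpi and Fabp2, and to AGGNCAAAG, a direct-repeat form that nuclear receptors bind, in Slc51a and Vil1, on either strand. Hnf4a has windows for both of its start sites, which the 3′ reads do not tell apart, and neither holds a match.
Alpi (chr1:87101607-87101856, minus strand): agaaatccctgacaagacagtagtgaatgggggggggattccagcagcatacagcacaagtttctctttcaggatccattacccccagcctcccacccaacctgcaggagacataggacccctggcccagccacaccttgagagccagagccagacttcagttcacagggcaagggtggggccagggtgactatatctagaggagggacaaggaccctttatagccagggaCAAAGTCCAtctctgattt
Fabp2 (chr3:122894822-122895071, plus strand): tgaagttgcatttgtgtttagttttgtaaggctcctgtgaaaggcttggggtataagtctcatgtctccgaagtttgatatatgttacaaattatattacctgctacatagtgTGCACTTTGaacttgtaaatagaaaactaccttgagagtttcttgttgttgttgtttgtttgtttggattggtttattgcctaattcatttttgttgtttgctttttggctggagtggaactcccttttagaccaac
Slc51a (chr16:32487880-32488129, minus strand): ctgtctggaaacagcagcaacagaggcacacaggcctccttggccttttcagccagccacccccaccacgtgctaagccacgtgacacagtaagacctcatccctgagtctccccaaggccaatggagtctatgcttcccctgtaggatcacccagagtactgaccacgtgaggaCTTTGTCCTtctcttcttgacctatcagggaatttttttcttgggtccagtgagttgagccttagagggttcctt
Vil1 (chr1:74409134-74409383, plus strand): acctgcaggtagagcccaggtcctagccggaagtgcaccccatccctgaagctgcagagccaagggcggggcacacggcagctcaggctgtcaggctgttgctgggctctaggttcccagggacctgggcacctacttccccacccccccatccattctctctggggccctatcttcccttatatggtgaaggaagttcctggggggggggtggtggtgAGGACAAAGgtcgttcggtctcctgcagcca
Hnf4a, upstream start (chr2:163506607-163506856, plus strand): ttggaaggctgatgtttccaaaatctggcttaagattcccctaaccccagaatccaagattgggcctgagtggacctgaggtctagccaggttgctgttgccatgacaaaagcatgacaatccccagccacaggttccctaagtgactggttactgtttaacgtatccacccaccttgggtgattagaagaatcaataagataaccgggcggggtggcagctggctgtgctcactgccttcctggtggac
Hnf4a, downstream start (chr2:163546905-163547154, plus strand): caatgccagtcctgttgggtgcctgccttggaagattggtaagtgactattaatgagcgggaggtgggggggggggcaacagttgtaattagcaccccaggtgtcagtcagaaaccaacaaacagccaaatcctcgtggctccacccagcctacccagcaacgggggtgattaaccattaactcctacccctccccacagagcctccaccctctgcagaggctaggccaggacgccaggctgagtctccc

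Over windows of 300 bases (250 before to 50 after the start), CAAAGTNCA was found in 3 of the 36 windows (Alpi, Apoa4, Fabp2), or 8.33%, against 1.41% of all 32851 RefSeq windows. AGGNCAAAG was found in 4 (Fabp1, Muc3, Slc51a, Vil1), or 11.1%, against 2.04%. The CDX-type motif TTTATG, named for the caudal homeobox factors of the intestine, was found in 7 (Cdhr5, Emp1, Espn, Fabp1, Mep1a, Saa1, Tmigd1), or 19.4%, against 11.9%. Both strands were searched, and no match overlapped a match to another motif. The match lay 19 bases before the start in Alpi, 31 in Vil1, 75 in Slc51a and 137 in Fabp2. Motif letters were chosen with the levels known, and a match is a description of the sequence. Genes with such a match differed widely in kept level: Alpi was at 0.0749% and Slc51a at 0.0625% of control, whereas Vil1 was at 30.0%. Fabp1 was at 131%, but it was low in control, and its AKP mean rested in large part on 2 libraries. RefSeq windows were not matched for Car1, Car2, Eps8, Hnf4g and Myo7b.

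The carbonic anhydrases of the colonocyte cytosol, Car1 and Car2, hydrate carbon dioxide. Their genes lie close together on chromosome 3 (Car1 chr3:14831269-14873459, minus strand, and Car2 chr3:14951317-14967568, plus strand, GRCm39), yet they differed in how much was kept. Car1 had a lowest, median and highest level of 7575, 8813 and 10033 CPM in control and of 0, 3.87 and 26.3 CPM over the 27 AKP libraries. Car2 had 1283, 1516 and 1679 CPM in control, 184, 235 and 285 CPM in the organoid AKP libraries and 16.1, 41.7 and 96.8 CPM in those of in vivo AKP. For the mini-colon AKP lines Car2 read 172, 146 and 183 CPM in #i, 105, 97.8 and 81.6 CPM in #ii, 209, 230 and 204 CPM in #iii, 186, 187 and 186 CPM in #iv and 263, 322 and 319 CPM in #v. Neither gene had an AKP library that reached the control range. In organoid AKP the log2 fold change was -10.36 ± 0.70 (SE, adjusted p = 3.4e-13) for Car1 and -2.70 ± 0.31 (adjusted p = 1.1e-08) for Car2. Their mean CPM was 1228-fold and 6.49-fold lower. Of 10 other carbonic anhydrases tested, 6 were lower and 3 higher in organoid AKP, with a median log2 fold change of -1.28. Car13 and Car12 were lower, at 8.20 against 33.5 CPM and 13.2 against 28.9 CPM, and Car8, which lacks carbonic anhydrase activity, was higher, at 33.5 against 11.6 CPM.

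The ion and water channels of the set were lost where they had a level in control. Slc26a3, the apical chloride-bicarbonate exchanger, lay between 34.9 and 67.9 CPM in control with a median of 49.4 CPM, and between 0 and 0.548 CPM in the AKP libraries with a median of 0. Organoid AKP held a single count of it, 0.0776% of the pooled control level with an exact (Clopper-Pearson) 95% interval of 0.00196 to 0.433%. Such intervals and floors cover counting error only. Aqp8, a water channel, had a median of 2.43 CPM in control and lay between 0 and 0.522 CPM in the AKP libraries. Its log2 fold change in organoid AKP was -3.68 ± 0.72 (adjusted p = 2.6e-05). Slc9a3, the apical sodium-proton exchanger NHE3, was low in control, from 0 to 1.53 CPM with a median of 0.508 CPM. It read 0, 0.536 and 0.975 CPM (lowest, median, highest) in organoid AKP and 2.30, 3.71 and 6.0 CPM in in vivo AKP, so that the 6 in vivo AKP libraries lay above all control and organoid AKP libraries. Its log2 fold change was 2.60 ± 0.49 against control (adjusted p = 1.4e-05) and 3.09 ± 0.52 against organoid AKP (adjusted p = 1.1e-05), the only rise among the 5 tested genes of this group.

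Outside the set, 20 of 22 other colonocyte transport and zonation genes were lower in organoid AKP and 2 were higher, with a median log2 fold change of -4.44. Lypd8, which keeps flagellated bacteria from the epithelium, was at 0.537 against 649 CPM, the sulphate transporter Slc26a2 at 46.4 against 584 CPM, and Atp1b1, a subunit of the sodium pump, at 83.5 against 1079 CPM. In in vivo AKP Atp1b1 was at 405 CPM, and it was higher than in organoid AKP by 2.28 ± 0.14 on the log2 scale (adjusted p = 6.5e-15).

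Of the lipid and bile acid genes, 6 of 7 were lower in organoid AKP, and the exception was Fabp1. Fabp2, the intestinal fatty acid binding protein, lay between 25.9 and 81.3 CPM in control with a median of 51.8 CPM and between 0 and 1.75 CPM in the AKP libraries with a median of 0.366 CPM, and it was 92.2-fold lower in organoid AKP. Its control level differed by letter, with a mean of 78.7 CPM in E and 26.1 CPM in F. Fabp1, its liver-type relative, was low in most libraries. It had a median of 1.12 CPM in control, 0.770 CPM in the organoid AKP libraries and 0.356 CPM in those of in vivo AKP. Its highest levels were 10.4 CPM in in vivo AKP replicate 5 and 9.46 CPM in #ii replicate 2, and it passed the test in none of the comparisons. With only the lines compared in the model, it was called as lower in #iii and #v against control and in #v against #i. Slc51a and Slc51b encode the subunits of the basolateral bile acid exporter. Slc51a had a lowest, median and highest level of 21.6, 25.3 and 31.5 CPM in control and was counted in 2 of 27 AKP libraries. Slc51b had 14.2, 17.1 and 20.1 CPM in control and was also counted in 2 of 27. For organoid AKP, this was 0.145% of the pooled control level for Slc51a (1 count, exact 95% interval 0.00366 to 0.810%) and at least 163-fold lower for Slc51b (0 counts, set against a floor of 3 counts over the line). Both subunits were thus not detectable in most AKP libraries at this depth. Of 7 other bile acid genes tested, 6 were lower in organoid AKP and 0 higher. The ileal bile acid transporter Slc10a2 (62.1 CPM in control) and the bile acid receptor Nr1h4 (41.3 CPM) had no count in organoid AKP, and the exporter Abcc3 was at 8.47 against 150 CPM.

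The apolipoproteins, which the small intestine uses to pack dietary fat, were low in control and lower in AKP lines. Apoa4 (chr9:46151994-46154757, GRCm39) ranged from 0.176 to 5.68 CPM in control with a median of 2.53 CPM and had 0 counts in all 27 AKP libraries, at least 83.1-fold lower over these libraries together. Apob ranged from 3.28 to 13.3 CPM in control with a median of 5.51 CPM and had a single count in the AKP libraries. Apoa1, which lies close to Apoa4 (chr9:46139878-46142212), had a median of 4.73 CPM in control and 0.263 CPM in the AKP libraries. The calls for Apoa4 in all 7 lines and for Apob in the 5 mini-colon AKP lines were not made by DESeq2. Of 17 small intestinal enterocyte genes tested, 14 were lower in organoid AKP and 1 was higher, with a median log2 fold change of -4.65, or -3.71 with silent genes at their bound. The glucose transporter Slc5a1 was at 0.409 against 17.8 CPM, the disaccharidase Sis at 0 against 16.7 CPM, and Dgat1, an enzyme of triglyceride synthesis, at 13.1 against 39.5 CPM.

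The brush border assembly genes differed in how much of their level was kept. The tip-link protocadherins Cdhr2 and Cdhr5, their scaffold Ush1c and the membrane-linking motor Myo1a stood at 0.224% to 4.0% of control over the AKP libraries, whereas the actin bundlers Vil1, Pls1 and Espn, the tip protein Eps8 and the tip-link motor Myo7b stood at 14.2% to 95.4%. Cdhr5 had a lowest, median and highest level of 275, 332 and 402 CPM in control and of 0.356, 4.01 and 6.52 CPM in the AKP libraries, and Myo1a had 475, 549 and 795 CPM against 0, 1.66 and 5.69 CPM. Ush1c had 69.6, 76.3 and 83.6 CPM in control and 0, 0.164 and 0.768 CPM in the AKP libraries. These 3 genes were 163-fold, 572-fold and 484-fold lower in organoid AKP, and each was called in every AKP line. Cdhr2 had 54.1, 58.5 and 59.8 CPM in control, 0.356, 1.05 and 1.62 CPM in the organoid AKP libraries and 0, 0.205 and 1.25 CPM in those of in vivo AKP. The mini-colon AKP lines kept more of it in their means, most in #i (6.72, 6.42 and 3.40 CPM) and #iii (4.70, 4.75 and 6.31 CPM). No mini-colon AKP library was under 1.31 CPM, but #ii (2.01, 1.31 and 1.31 CPM) and #iv (lowest 1.57 CPM) overlapped organoid AKP.

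The bundlers behaved otherwise. Vil1 (villin) had a lowest, median and highest level of 261, 284 and 320 CPM in control, 71.2, 83.1 and 94.9 CPM in the organoid AKP libraries and 105, 119 and 134 CPM in those of in vivo AKP. Its log2 fold change in organoid AKP was -1.78 ± 0.08 (adjusted p = 2.4e-19), and its mean CPM was 3.44-fold lower. Pls1 (fimbrin) had 229, 268 and 299 CPM in control, 22.4, 28.6 and 32.3 CPM in the organoid AKP libraries and 28.6, 41.4 and 59.4 CPM in those of in vivo AKP, 9.58-fold lower in organoid AKP. Both genes were lower than control in all 7 AKP lines without overlap. Eps8, which caps and bundles actin at the microvillus tip, had 148, 164 and 186 CPM in control and 110, 115 and 138 CPM in organoid AKP. The log2 fold change was -0.46 ± 0.08 (adjusted p = 1.0e-05) and the highest AKP library, in #v, read 170 CPM, inside the control range. Myo7b had 119, 139 and 160 CPM in control, 87.2, 100 and 121 CPM in the organoid AKP libraries and 31.5, 36.6 and 53.2 CPM in those of in vivo AKP. It thus kept 73.8% of its control mean in organoid AKP, while its partners Cdhr2, Cdhr5 and Ush1c kept 1.79%, 0.614% and 0.207%.

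Espn (espin, chr4:152204788-152236887, minus strand, GRCm39) differed widely between the AKP lines. It had a lowest, median and highest level of 34.9, 37.8 and 49.5 CPM in control, 18.4, 39.9 and 52.3 CPM in the organoid AKP libraries and 32.0, 90.3 and 170 CPM in those of in vivo AKP. The mini-colon AKP libraries read 6.14, 3.5 and 4.76 CPM in #i, 1.15, 1.84 and 2.95 CPM in #ii, 3.31, 2.74 and 1.05 CPM in #iii, 32.0, 32.3 and 32.4 CPM in #iv and 33.2, 32.8 and 35.0 CPM in #v. So #i to #iii lay below all other lines, and #iv and #v lay at or just under the lower edge of the control range. Espn was lower than control in #i (log2 fold change -3.02 ± 0.58, adjusted p = 4.3e-05), #ii (-4.19 ± 0.63, adjusted p = 1.3e-06) and #iii (-3.96 ± 0.63, adjusted p = 2.9e-06), and it was not called in organoid AKP (-0.08 ± 0.34, adjusted p = 0.84), #iv (-0.28 ± 0.43) or #v (-0.21 ± 0.42). The split of the mini-colon AKP lines is also the split of the letters, with which it cannot be told apart. In in vivo AKP the letters differed as well: E libraries lay between 32.0 and 39.6 CPM and F libraries between 141 and 170 CPM. The rise over control of 1.27 ± 0.33 (adjusted p = 0.0013) rested on the F libraries, which gave 2.04 ± 0.10 alone, whereas the E libraries alone gave -0.24 ± 0.29 (adjusted p = 0.487).

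**Figure D3:**
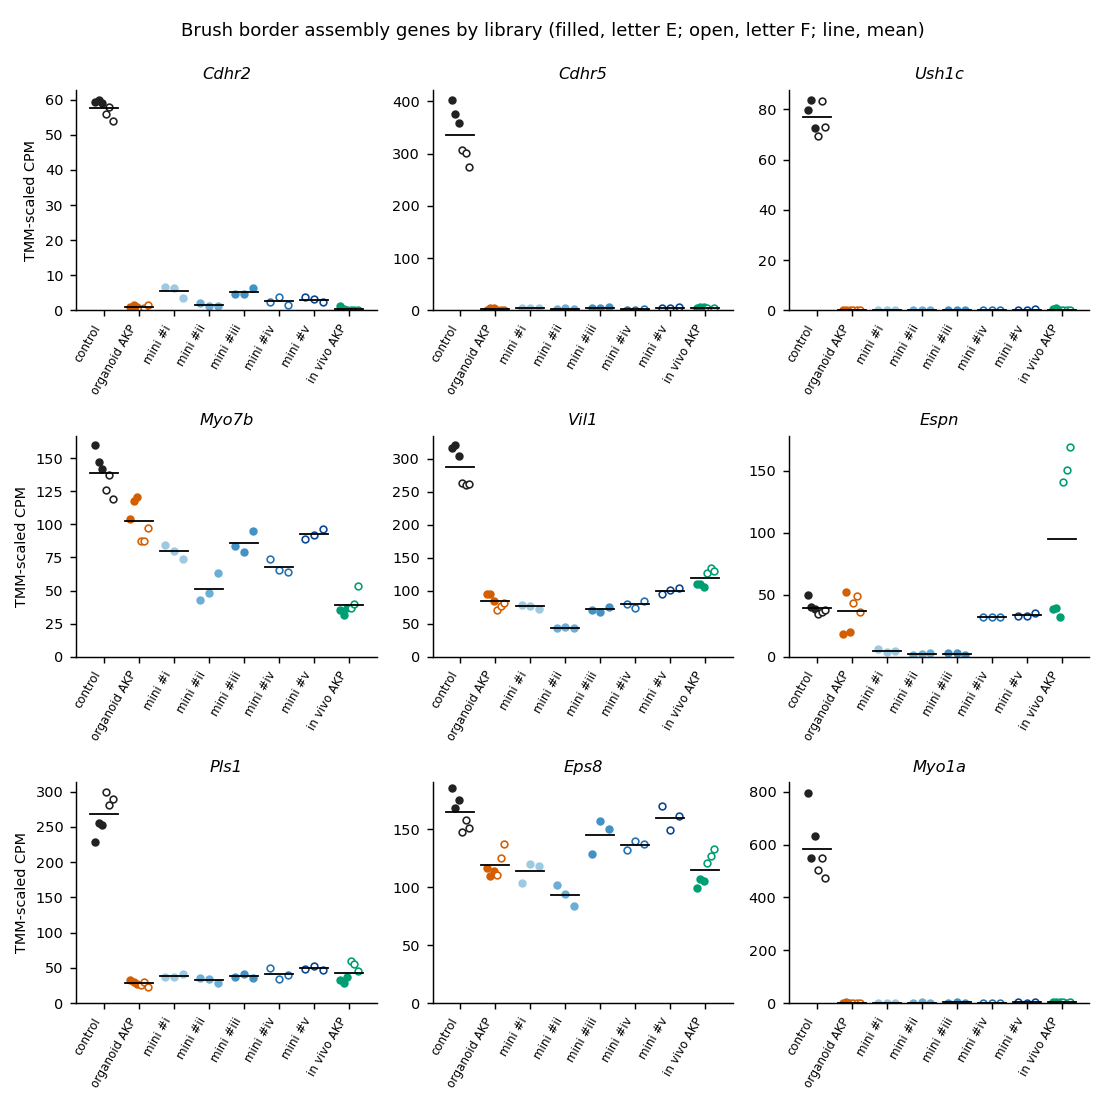
Level of the 9 brush border assembly genes in each library by line, in TMM-scaled CPM on linear axes that start at 0 and differ between genes. Filled points carry the letter E, open points F, and lines mark the mean of a line. Cdhr2, Cdhr5, Ush1c and Myo1a drop far below control in every AKP line. Vil1, Pls1, Eps8 and Myo7b drop less, and Espn is lowest in #i to #iii.

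Of 12 other brush border genes tested, 10 were lower in organoid AKP and 1 was higher, with a median log2 fold change of -1.60. Anks4b, which joins Ush1c and Myo7b in the tip-link complex, was at 0.261 CPM in the organoid AKP libraries and 4.73 CPM in those of in vivo AKP against 83.9 CPM in control. Myo5b, which carries vesicles to the apical membrane, was at 26.7 against 159 CPM, and the scaffold Nherf1 at 49.1 against 183 CPM.

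All 6 surface enzymes and adhesion molecules were lower in each AKP line, and 5 of them were nearly gone. Alpi, the intestinal alkaline phosphatase, had a lowest, median and highest level of 157, 209 and 226 CPM in control, and was counted in 9 of 27 AKP libraries with at most 0.731 CPM. The means of organoid AKP and control differed 950-fold. Mep1a, the alpha subunit of the protease meprin, had 50.0, 70.8 and 102 CPM in control and at most 0.788 CPM in the AKP libraries. The membrane mucin Muc3 (named Muc17 in GENCODE M39) had 55.4, 79.3 and 107 CPM in control and at most 2.89 CPM in the AKP libraries. The last value came from #ii replicate 2, which also held the highest AKP level of Tmigd1 (2.37 CPM), an adhesion molecule that had 87.1, 92.5 and 98.7 CPM in control. Ceacam20, a microvillus receptor, had 49.7, 68.8 and 96.6 CPM in control and no count in organoid AKP, at least 612-fold lower. Ceacam1 was the gene of this group that remained, with a lowest, median and highest level of 1010, 1266 and 1580 CPM in control, 179, 210 and 230 CPM in the organoid AKP libraries and 266, 358 and 455 CPM in those of in vivo AKP. It was 6.13-fold lower in organoid AKP, and reads of Ceacam1 may be shared with its close paralogue Ceacam2.

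The guanylin peptides Guca2a and Guca2b, encoded side by side (chr4:119494890-119496668 and chr4:119513802-119516151, GRCm39), activate the receptor guanylate cyclase C and thereby fluid secretion. Guca2a had a lowest, median and highest level of 268, 286 and 345 CPM in control and of 0, 0.276 and 2.92 CPM in the AKP libraries, and Guca2b 33.5, 41.7 and 48.7 CPM against 0, 0 and 0.975 CPM. Both were lower in all 7 AKP lines, by 455-fold for Guca2a in organoid AKP, where Guca2b had 3 counts (0.270% of the pooled control level, exact 95% interval 0.0557 to 0.792%). The receptor was also low: Gucy2c was at 0.883 CPM in the organoid AKP libraries and 4.94 CPM in those of in vivo AKP against 104 CPM in control. Of the 6 genes of the receptor and its targets, 5 were lower in organoid AKP and 0 higher, among them the exchanger Slc9a2 at 5.37 against 95.7 CPM and the phosphodiesterase Pde5a at 24.2 against 58.7 CPM.

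Krt20, a keratin of surface cells, had a lowest, median and highest level of 553, 618 and 770 CPM in control and of 0, 1.12 and 7.10 CPM in the AKP libraries, 700-fold lower in organoid AKP. Saa1, an acute phase protein made by the epithelium, had 26.8, 34.3 and 57.9 CPM in control and at most 0.183 CPM in the AKP libraries, and its reads may be shared with the near-identical Saa2. Emp1, a membrane-spanning protein of epithelial cells, was the exception in this group. It had 1376, 1812 and 2163 CPM in control, 646, 856 and 1078 CPM in the organoid AKP libraries and 197, 232 and 314 CPM in those of in vivo AKP. The mini-colon AKP libraries read 748, 829 and 879 CPM in #i, 484, 499 and 434 CPM in #ii, 465, 491 and 468 CPM in #iii, 538, 525 and 525 CPM in #iv and 423, 425 and 394 CPM in #v. Each AKP line was lower than control without overlap, with a log2 fold change of -1.06 ± 0.13 in organoid AKP (adjusted p = 5.2e-09) and of -2.88 ± 0.14 in in vivo AKP (adjusted p = 2.4e-19).

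Other transcription factors of the absorptive lineage moved less uniformly. Of 18 tested, 13 were lower and 2 higher in organoid AKP, with a median log2 fold change of -1.64. The vitamin D receptor Vdr was at 2.64 against 96.1 CPM, whereas Maf was higher, at 160 against 44.1 CPM. In the same comparison all 9 stem cell markers and all 10 cycling cell markers tested were higher, such as Sox9 (871 against 87.0 CPM), the receptor Tnfrsf19 (135 against 0.124 CPM), Ascl2 (49.9 against 0.508 CPM) and Top2a (1465 against 178 CPM). Of 9 goblet cell markers tested, 5 were lower and 2 higher, with Fcgbp at 6.86 against 626 CPM.

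The 20 nearly silent genes left a trace in the AKP libraries that was not even. Their summed level lay between 9968 and 13345 CPM in control and between 3.56 and 53.1 CPM in the AKP libraries, which is 0.0308% to 0.459% of the control mean. Without Car1, the most abundant of them, it was 0.0905% to 1.01%. Between 5 and 15 of the 20 genes had a count in an AKP library. The highest sums were 53.1 CPM in #ii replicate 2 and 43.9 CPM in organoid AKP replicate 2, against a lowest sum of 4.88 CPM in #ii and of 3.56 CPM in organoid AKP. The source of these traces was not tested. Without these libraries, the counts of lower genes against control stayed at 32 in organoid AKP and 33 in #ii.

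The AKP lines were next compared with one another. In vivo AKP differed from organoid AKP in 13 genes, with 8 higher (22.2% of the 36, against 17.4% of all genes) and 5 lower (13.9%, against 17%), shares near those of all genes. The higher genes included 5 of the 9 brush border assembly genes: Vil1 by 0.51 ± 0.08 on the log2 scale (adjusted p = 7.5e-06), Pls1 by 0.63 ± 0.14, Cdhr5 by 1.38 ± 0.36, Myo1a by 1.87 ± 0.51 and Espn by 1.35 ± 0.33 (adjusted p = 0.0021). The others were Ceacam1 (0.81 ± 0.12, adjusted p = 1.5e-06), Slc9a3 and Hnf4a (2.66 ± 0.39, adjusted p = 1.9e-06). Lower were Car2 (-2.18 ± 0.32, adjusted p = 3.1e-06), Myo7b (-1.40 ± 0.11, adjusted p = 3.9e-12), Emp1 (-1.83 ± 0.13, adjusted p = 1.9e-13), Klf4 (-0.64 ± 0.11, adjusted p = 2.9e-05) and Cdhr2 (-1.22 ± 0.49, adjusted p = 0.041). For Vil1, Slc9a3, Myo7b and Emp1 no library of in vivo AKP overlapped one of organoid AKP, and the same held for Hnf4a, Car2, Klf4 and Ceacam1. The share of all genes without overlap between these lines was not determined, so the separation is a description of these genes. The call for Cdhr2 was lost under 19 alternatives, such as without organoid AKP replicates 1, 2, 3 or 6 or without in vivo AKP replicates 2, 3, 4, 5 or 6.

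The letters bear on this comparison. Within E alone 4 genes were higher, and 5 calls were lost. The log2 fold changes of these in E were -0.94 for Cdhr2, 0.65 for Cdhr5, 0.31 for Espn, 1.34 for Myo1a and 0.16 for Pls1. Within F alone 9 genes were higher and 6 lower, with Hnf4g (2.36 ± 0.53) added as higher and Apoa1 as lower. No share of all genes is given within a letter, so these counts show only which calls changed. Car2 in in vivo AKP had a mean of 17.1 CPM in E and 85.3 CPM in F, so that its difference from organoid AKP was -3.90 ± 0.12 in E and -1.22 ± 0.12 in F, called in both. Hnf4a was higher by 1.38 ± 0.41 in E (adjusted p = 0.015) and by 3.99 ± 0.27 in F (adjusted p = 3.7e-16). Myo7b, Emp1, Klf4, Vil1, Ceacam1 and Slc9a3 were also called in both letters with the same sign.

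The mean of the 5 mini-colon AKP lines was higher than organoid AKP in 4 genes (11.1% of the 36, against 3.42% of all genes) and lower in 5 (13.9%, against 7.26%). Higher were Hnf4a by 1.65 ± 0.39 on the log2 scale (adjusted p = 0.0043), Cdhr2 by 1.70 ± 0.29 (adjusted p = 7.3e-05), Cdhr5 by 1.11 ± 0.34 (adjusted p = 0.028) and Pls1 by 0.51 ± 0.12 (adjusted p = 0.0034). Lower were Espn (-2.25 ± 0.32, adjusted p = 1.1e-05), Emp1 (-0.72 ± 0.10, adjusted p = 5.4e-06), Myo7b (-0.46 ± 0.09, adjusted p = 0.00051), Klf4 (-0.35 ± 0.09, adjusted p = 0.011) and Vil1 (-0.22 ± 0.07, adjusted p = 0.038). With the letter as a term in the model these 9 calls remained, and Ceacam1 was added as higher. The call for Vil1 was lost under 13 alternatives, RLE scaling, limma-voom and DESeq2 among them, and that for Cdhr5 without organoid AKP replicate 4, 5 or 6 or #iv replicate 3. This comparison and that of in vivo AKP share the 6 organoid AKP libraries.

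**Figure D4:**
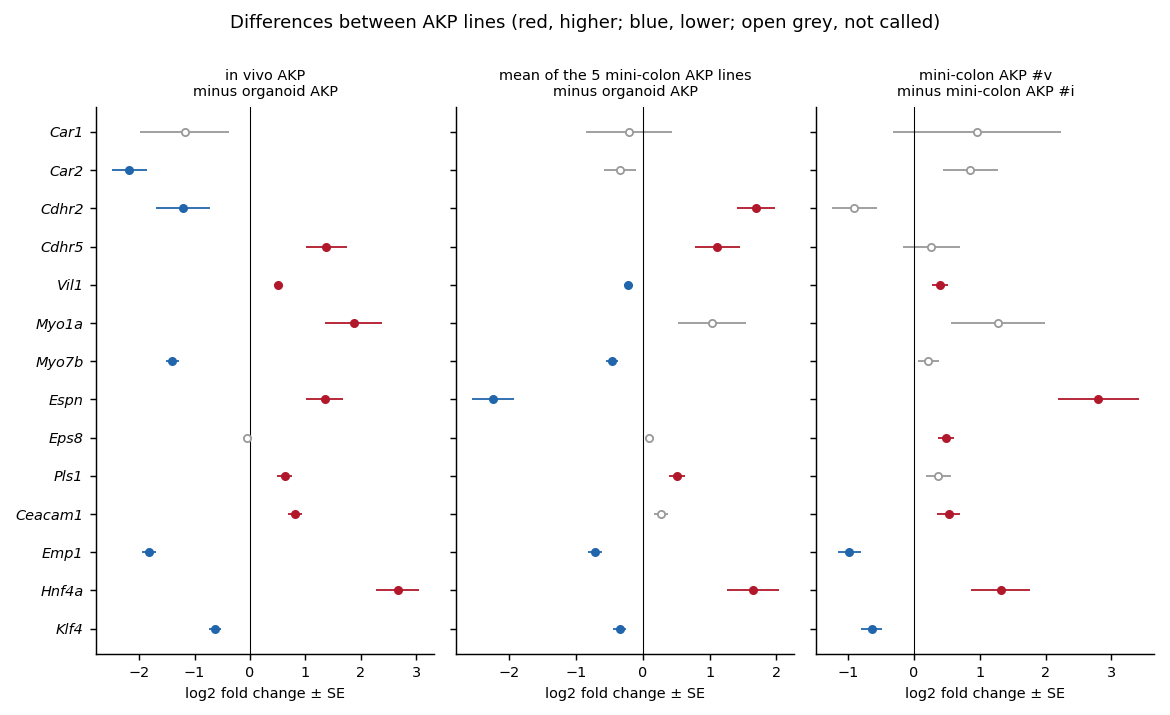
Log2 fold change, with its SE, of in vivo AKP and of the mean of the mini-colon AKP lines from organoid AKP and of #v from #i, for the 14 genes that averaged 2 CPM or more over the AKP libraries. Points right of 0 are higher in the line named first. Hnf4a lies right of 0 in all 3 comparisons, and Emp1 and Klf4 lie left of 0.

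Among the mini-colon AKP lines, 13 of the 36 genes (36.1%, against 46.7% of all genes) differed by an F test over the 5 lines: Car2, Cdhr2, Vil1, Myo7b, Espn, Eps8, Muc3, Ceacam1, Guca2b, Krt20, Emp1, Hnf4a and Klf4. Between #v and #i, 8 genes were higher in #v (22.2%, against 12.5% of all genes) and 2 lower (5.56%, against 11.9%). Higher were Espn by 2.80 ± 0.62 on the log2 scale (adjusted p = 0.0021), Krt20 by 2.78 ± 0.75 (adjusted p = 0.0069), Hnf4a by 1.32 ± 0.45 (adjusted p = 0.031), Ceacam1 by 0.52 ± 0.17, Eps8 by 0.49 ± 0.12 and Vil1 by 0.39 ± 0.12, and Slc9a3 and Guca2b, which had no count in #i and at most 0.952 CPM and 0.833 CPM in #v. Lower were Emp1 (-0.98 ± 0.18, adjusted p = 0.00026) and Klf4 (-0.64 ± 0.16, adjusted p = 0.0042). Cdhr2 (-0.91) was not called, but it was called as lower under 15 alternatives, DESeq2, RLE scaling, the filter of 5 CPM and the replicate block among them. Vim, the only fibroblast and muscle marker of 10 that passed the filter, was also higher in #v than in #i. Its part in these differences was not tested. Krt20 read 0.292, 0.292 and 1.02 CPM in #i and 3.44, 3.41 and 4.05 CPM in #v, all far below control. As #v is crypt-enriched and carries F and #i is lumen-enriched and carries E, line, tumour position and letter cannot be told apart within these libraries. With the letter as a term, estimated from the other lines, Espn (1.95 ± 0.64, adjusted p = 0.056), Hnf4a (0.76 ± 0.45, adjusted p = 0.33) Klf4 (-0.28 ± 0.13, adjusted p = 0.17) and Slc9a3 (4.09, against 4.58 without the term, resting on 0 counts in #i) were no longer called, and Apoa1 and Hnf4g were added as higher. Leaving out #i replicate 3 or #v replicate 3 reduced the 8 higher genes to 3, and leaving out #i replicate 2 to 5. The calls for Hnf4a, Ceacam1, Vil1, Slc9a3 and Guca2b were those that a single library could end, whereas the calls for Espn, Krt20, Eps8, Emp1 and Klf4 were made without each library in turn.

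**Figure D5:**
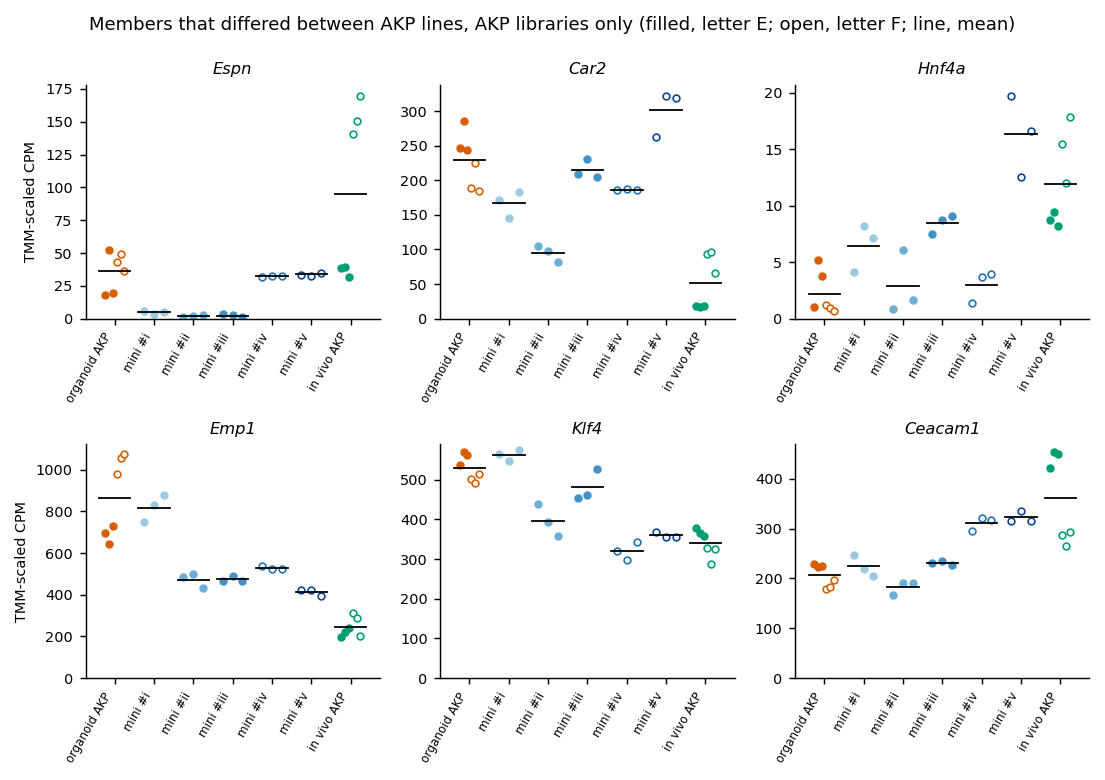
Level of Espn, Car2, Hnf4a, Emp1, Klf4 and Ceacam1 in the AKP libraries by line, in TMM-scaled CPM, with filled points for E, open points for F and a line at the mean of each line. Espn falls into low (#i to #iii) and higher lines, Car2 and Emp1 are lowest in in vivo AKP, and Hnf4a is lowest in organoid AKP.

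The order of the lines differed from gene to gene. Car2 ran from #v over organoid AKP, #iii, #iv, #i and #ii to in vivo AKP, Vil1 from in vivo AKP over #v, organoid AKP, #iv, #i and #iii to #ii, and Emp1 from organoid AKP over #i, #iv, #iii, #ii and #v to in vivo AKP. In #ii, Vil1 (43.1, 44.7 and 43.3 CPM) lay below every other line, and so did Eps8 in its mean, with 102, 94.1 and 84.1 CPM. Neighbours in these orders often overlapped: for Car2, #v overlapped organoid AKP, organoid AKP overlapped #iii, and #ii overlapped in vivo AKP. The libraries of #v lay above those of the other mini-colon AKP lines for Vil1, Hnf4a, Car2, Espn and Hnf4g, and for Ush1c at no more than 0.357 CPM. The share of all genes with such a separation was not determined.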

How the data were processed

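QuantSeq 3′ libraries of 33 organoid samples were deposited by the authors as raw counts per gene, after alignment to GRCm39 with STAR. The counting tool, its strand setting and its annotation are not given in the sources used here. Symbols came from GENCODE M39. The 611 identifiers without a symbol, with 6.85% of the counts, were kept. Muc3 was matched by the genome position of its RefSeq promoter.

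Counts were scaled by TMM. A gene was kept when 3 or more libraries reached 1 CPM, which 13606 genes did, and these were tested in a single model of the 8 lines with edgeR 4.0.16 (robust quasi-likelihood test, R 4.3.3). Adjusted p values are edgeR's, with Benjamini-Hochberg adjustment over all genes and a threshold of 0.05. The pipeline was tested on simulated data. Percentages of all genes count every gene tested. A level of 0 in a line was set against a floor of 3 counts over the line.

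The 36 genes and the other lists were chosen with earlier results of these data known. Levels are given in full for the 3 most abundant genes of each role and for genes called, with a log2 size of 2 or more, between organoid AKP and control or in vivo AKP. From other lists, the 3 genes with the smallest p and at least 5 CPM in the higher line could be named. An allele and a listed gene are not reported here. Alternatives were limma-voom (limma 3.58.1), DESeq2 1.42.0, RLE scaling, no filter, a filter of 5 CPM, dropping identifiers without a symbol, only the lines compared, the letter as a term, each letter alone, a replicate block, and leaving out each library.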

Additional observations from a re-analysis of the deposited data

Results flagged for a closer look

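In lines of 6 libraries, 66 pairs of a gene and a line with a mean of at least 1 CPM were searched for a lone library by Dixon's criterion, and 6 were found. Chance alone marks about 1 in 20. Car1 stood at 26.3 CPM in organoid AKP replicate 2, where the other libraries lay between 0.809 and 8.25 CPM. It stood at 10.3 CPM in in vivo AKP replicate 4, against 0.178 to 2.80 CPM in the other libraries. Fabp1 stood at 10.4 CPM in in vivo AKP replicate 5, against 0 to 0.768 CPM. Myo7b stood at 53.2 CPM in in vivo AKP replicate 6, against 31.5 to 39.6 CPM. In control replicate 1, Espn stood at 49.5 CPM, against 34.9 to 40.2 CPM, and Saa1 at 57.9 CPM, against 26.8 to 37.1 CPM.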

How the results depend on the processing

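Of 15385 values of single genes under the alternatives, 15241 kept their direction and their side of the threshold, 86 lost a call, 57 gained one and 1 reversed: Espn in in vivo AKP against control was -0.24 in the libraries of letter E alone. With E alone, the genes higher in in vivo AKP fell from 2 to 1 against control and from 8 to 4 against organoid AKP, and the filter of 5 CPM also left 1 gene higher than control. The 2 genes lower in #v than in #i became 1 with the letter as a term and 4 with only the lines compared. Leaving out 1 library at a time, the genes higher in #v than in #i ranged from 3 to 8, those differing among the mini-colon AKP lines from 10 to 15, and the counts lower than control moved by at most 1. Same-numbered libraries did not vary together throughout (lowest correlation for control and in vivo AKP -0.103, replicate 6). For organoid AKP and in vivo AKP the same-numbered correlation was 0.331 in replicate 4, against at most 0.265 for other numbers. In replicate 5 it was 0.375, against up to 0.457. The check was mixed, so it cannot settle whether libraries were paired. With the replicate block, 32 genes were lower in organoid AKP than in control, the call for Cdhr5 in the mean of the mini-colon AKP lines was lost, and 9 genes were higher in #v than in #i. Leaving out organoid AKP replicate 2 and #ii replicate 2, an alternative chosen after seeing the data, moved no count by over 1.5 times. DESeq2 gives no F test here, and within 1 letter no comparison across letters can be made. Genes with a control median under 5 CPM, such as Apoa4, Aqp8, Car4 and Slc9a3, are limited by depth.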
